A study of Mus musculus with 25 samples.

Results

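The enzymes that make and break down leukotrienes, with the lipoxygenases beside them, were followed as a set of 10 genes, whose rows were found by gene symbol: Alox5, Alox5ap, Lta4h, Ltc4s, Alox12, Alox15, Ggt5, Ggt1, Cyp4f18 and Ephx2. Each had 1 row among the 38087 genes of both deposited tables. The cells were sorted from the tibialis anterior muscle of male C57BL/6J mice aged 2 to 4 months after 50 µl of cardiotoxin, a snake venom toxin that destroys muscle fibres. All were CD45+ leukocytes, split into Ly6Ghigh neutrophils at day 1 (3 samples), Ly6Clow F4/80high macrophages at day 4 (2 samples) and day 2 (3 samples), and Ly6Chigh F4/80low macrophages at day 4 (2 samples) and day 2 (3 samples). The second table held bone marrow-derived macrophages (BMDM) grown from males of the same strain, aged 8 to 10 weeks, with 10 ng/ml M-CSF and then replated without it. Of these, 3 libraries came from cells given 10 nM resolvin D2 (RvD2) for 4 h and 3 from untreated cells.

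Leukotrienes are lipid mediators made from arachidonic acid, which cytosolic phospholipase A2 frees from membranes. The enzyme 5-lipoxygenase (Alox5), helped by its membrane partner FLAP (Alox5ap), turns arachidonic acid into the unstable epoxide leukotriene A4. From there the path forks: leukotriene A4 hydrolase (Lta4h) makes leukotriene B4, a strong attractant of neutrophils, and leukotriene C4 synthase (Ltc4s) adds glutathione to begin the cysteinyl leukotrienes. Gamma-glutamyl transferases (Ggt1, Ggt5) trim leukotriene C4 to D4, and in mouse neutrophils Cyp4f18 inactivates leukotriene B4 by oxidation. Resolvins such as RvD2 are made from docosahexaenoic acid, also by lipoxygenases.

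Levels are the authors' normalised read counts, deposited as log2 values. In muscle each group had 1 value, the authors' mean of log2 values over its samples, so muscle differences carry no error and no test, and whether they exceed the variation among samples is unknown. Between muscle groups the log2 ratio was taken after adding 10 normalised counts, and all muscle folds given below are on that scale unless stated. A gene is called higher or lower where that ratio was at least 2-fold and the higher group reached 50 normalised counts, and for neutrophils where this held against each of the 4 macrophage groups. Summed normalised counts were 26.0 M (mega) in neutrophils and 11.9 to 12.8 M in the macrophage groups. Rescaling the groups to equal totals would lower the neutrophil ratios of abundant genes by 1.03 to 1.13 on the log2 scale. The BMDM libraries had an estimated 9.05 to 14.3 M gene reads. The 13 neutrophil markers summed to 422450 normalised counts in neutrophils and 2383 to 3061 in the macrophage groups, where 3 or 4 of the 13, Ly6g among them, were at 0. Ly6c2, which encodes part of the sorted antigen, was at log2 levels of 6.55 and 7.12 in Ly6Clow cells and 13.52 and 11.86 in Ly6Chigh cells at days 4 and 2. The macrophage markers Mertk and C1qa were at log2 levels of 3.69 and 6.83 in neutrophils, against 9.76 to 11.90 and 12.13 to 15.19 in the macrophage groups. Csf1r and Cd68 differed less, at 13.42 and 13.31 in neutrophils, against 13.86 to 15.16 and 13.57 to 14.74. Itgam went the other way, at 15.86 in neutrophils and 13.12 to 14.67 in the macrophage groups. The 8 macrophage markers summed to 101100 normalised counts in neutrophils and 212880 to 347720 in the macrophage groups. In bulk samples such as these, fewer cells of a type and less RNA per cell cannot be told apart.

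Neutrophils held the highest levels of the first enzyme of the path and of the enzyme that ends leukotriene B4. Of the 10 genes, 7 reached 50 normalised counts in some muscle group, and 4 of them were called higher in neutrophils than in each macrophage group: Alox5, Ggt5, Ggt1 and Cyp4f18. None (0) was called lower. Over all 12837 genes that reached the limit, 22.7% were called higher and 18.8% lower.

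Alox5 lies at chr6:116410077-116461178 (mm10), on the minus strand. It stood at 5171 normalised counts in neutrophils, against 150 in Ly6Clow cells at day 4, 186 in Ly6Clow cells at day 2, 107 in Ly6Chigh cells at day 4 and 120 in Ly6Chigh cells at day 2. The neutrophil level was 26.4- to 44.4-fold higher, while the 4 macrophage groups lay within 1.75-fold of each other with nothing added to the counts. As a share of the neutrophil level, Alox5 in the macrophage groups came to 2.06 to 3.60%. The summed neutrophil markers in the same groups came to 0.564 to 0.725% of their neutrophil sum. Csf3r alone made up 86.7% and 88.3% of that sum in Ly6Clow and Ly6Chigh cells at day 4, and without it, an alternative chosen after seeing the data, the share was 0.104 to 0.480%. Mmp8, another of these markers, was at a log2 level of 10.60 in neutrophils. It was at 10.05 and 9.33 in Ly6Clow and Ly6Chigh cells at day 2, and at 7.62 and 7.16 at day 4. It made up most of the sum left without Csf3r in both day 2 groups. The part of neutrophils in the macrophage levels of Alox5 was not tested.

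Alox5ap encodes FLAP, which presents arachidonic acid to 5-lipoxygenase, and it was abundant in all 5 groups. The gene, at chr5:149264767-149288153 on the plus strand, had 15204 normalised counts in neutrophils, 4583 in Ly6Clow cells at day 4, 6430 in Ly6Clow cells at day 2, 5909 in Ly6Chigh cells at day 4 and 8986 in Ly6Chigh cells at day 2. Neutrophils were 1.69- to 3.31-fold higher and so not called, and with equal totals the ratio to Ly6Chigh cells at day 2 turned to -0.29 on the log2 scale. Among macrophages the order ran from Ly6Chigh at day 2 down to Ly6Clow at day 4, a 1.96-fold gap just short of a call.

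**Figure D1:**
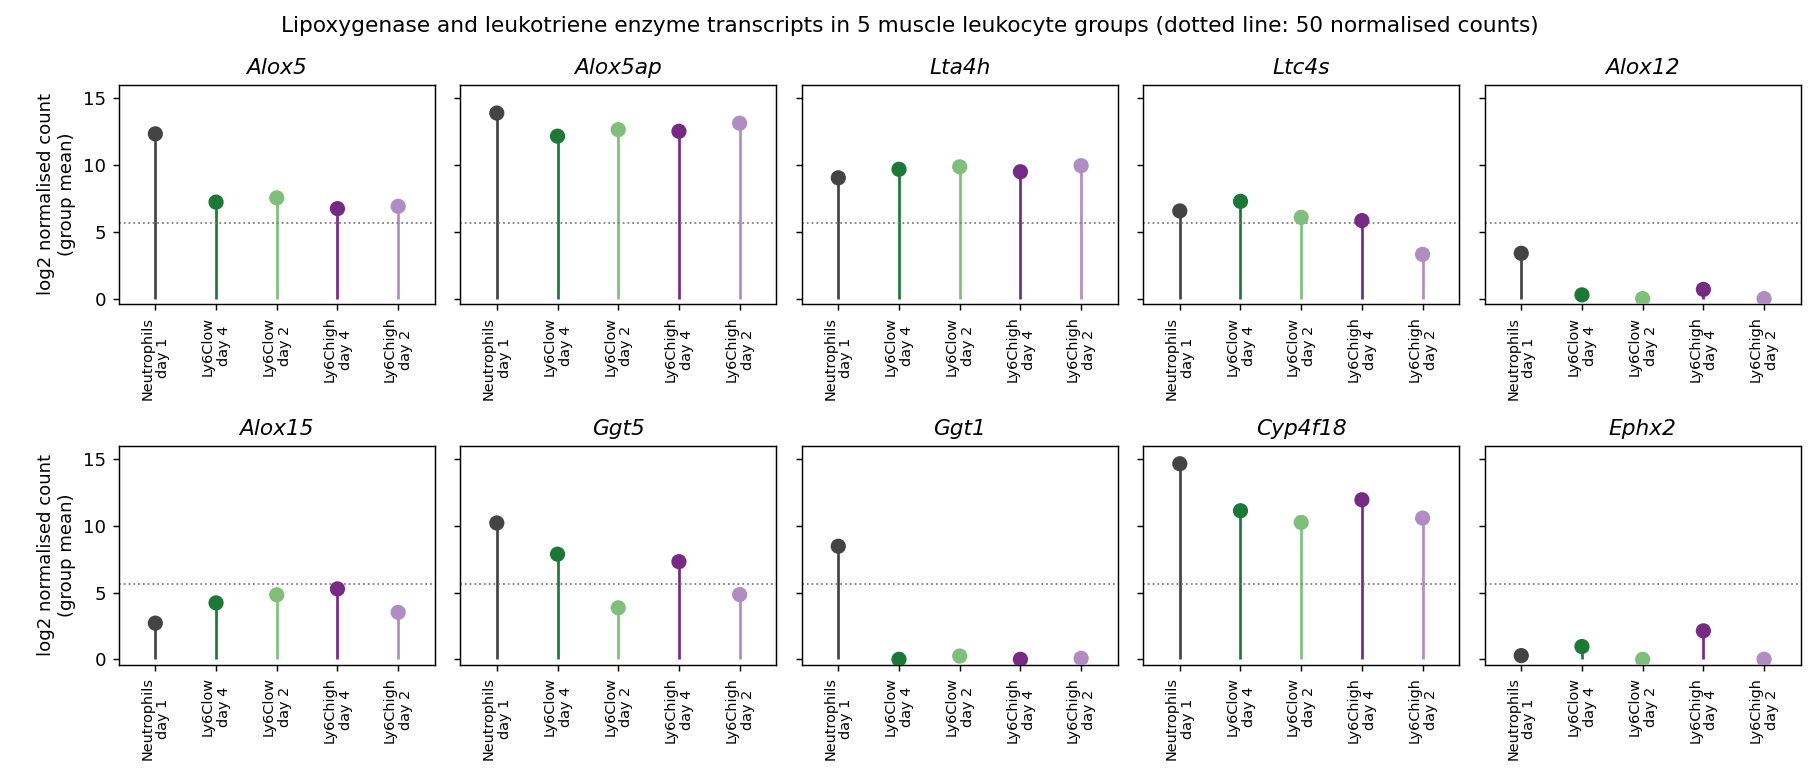
Log2 normalised counts of the 10 genes in the 5 muscle groups, 1 point per group, each the authors' mean of log2 values, with neutrophils at the left of each panel and a dotted line at 50 normalised counts. Alox5, Ggt5, Ggt1 and Cyp4f18 peak in neutrophils, Lta4h spans 1.88-fold over the 5 groups with nothing added to the counts, and Ltc4s is highest in Ly6Clow cells at day 4 and lowest in Ly6Chigh cells at day 2.

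The balance between FLAP and 5-lipoxygenase transcripts can be read within a group, where scaling between groups does not enter. Per kb of merged exons, Alox5ap exceeded Alox5 by 8.50-fold in neutrophils. The same ratio was 88.6 in Ly6Clow cells at day 4, 99.9 in Ly6Clow cells at day 2, 160 in Ly6Chigh cells at day 4 and 216 in Ly6Chigh cells at day 2. In the 6 BMDM libraries it ranged from 139 to 759. Every macrophage sample or group thus held at least 88.6 times as much Alox5ap as Alox5 per kb. The 1420 exon bases of Alox5ap overlap by 189 bases those of Gm19719 and n-R5s180 on the other strand. Without strand, reads cannot be told apart there. In muscle, n-R5s180 was at a log2 level of 0.42 in neutrophils and 0 in the macrophage groups, and Gm19719 has no level.

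**Figure D2:**
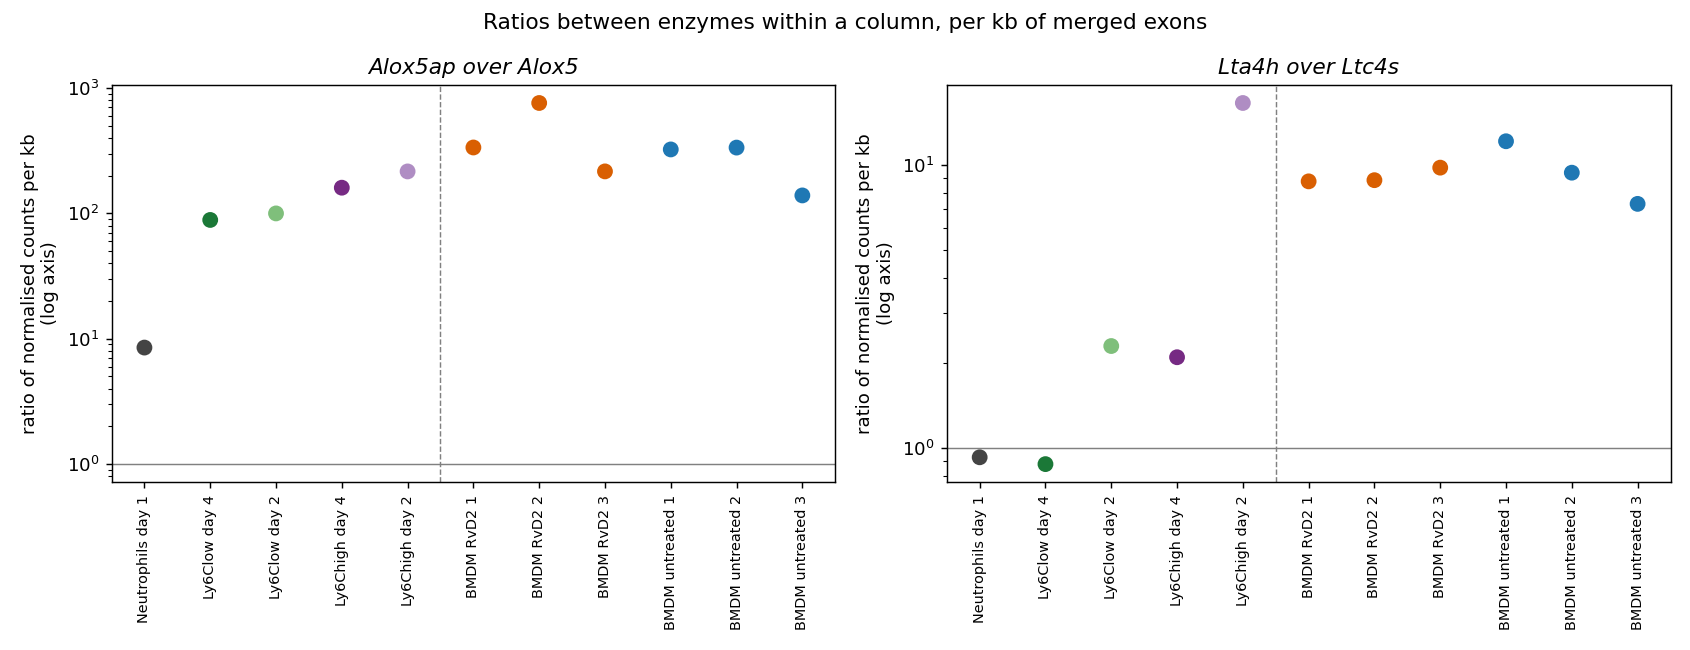
Ratios of normalised counts per kb of merged exons between enzymes of the same column, on log axes: Alox5ap over Alox5 (left panel) and Lta4h over Ltc4s (right panel), for the 5 muscle group means and the 6 BMDM libraries. Neutrophils stand lowest in the left panel at 8.50, and in the right panel neutrophils and Ly6Clow cells at day 4 lie just under 1, with Ly6Chigh cells at day 2 at 16.6.

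Cyp4f18 was the most abundant of the 10 transcripts in neutrophils, at 25640 normalised counts, or 13822 per kb. The gene lies at chr8:71988482-72009626 on the minus strand. It had 2239 in Ly6Clow cells at day 4, 1221 in Ly6Clow cells at day 2, 3948 in Ly6Chigh cells at day 4 and 1528 in Ly6Chigh cells at day 2. Neutrophils were 6.48- to 20.8-fold higher than the macrophage groups. Its exons overlap by 181 bases those of Zfp961 on the other strand, and the libraries as described keep no strand, so reads of the 2 genes cannot be told apart there. Zfp961 followed the same order, with log2 levels of 10.67, 7.40, 6.58, 8.07 and 6.72 in the order of groups just given.

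The gamma-glutamyl transferase genes Ggt1 and Ggt5 are neighbours on chromosome 10: Ggt1 spans chr10:75561604-75586200 and Ggt5 chr10:75589340-75617200, both on the plus strand. Ggt1 was found in neutrophils almost alone: it had 354 normalised counts there, was listed at 0 in Ly6Clow and Ly6Chigh cells at day 4, and had 1.19 in Ly6Clow and 1.06 in Ly6Chigh cells at day 2. Ggt5 had 1184 normalised counts in neutrophils, 235 in Ly6Clow cells at day 4, 14.5 in Ly6Clow cells at day 2, 159 in Ly6Chigh cells at day 4 and 28.9 in Ly6Chigh cells at day 2. It was 4.88- to 48.7-fold higher in neutrophils, the smaller folds being those against the day 4 groups.

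At the fork below leukotriene A4, neither enzyme was called in neutrophils against all 4 macrophage groups. Lta4h, at chr10:93453411-93484875 on the plus strand, had 528 normalised counts in neutrophils, 821 in Ly6Clow cells at day 4, 934 in Ly6Clow cells at day 2, 723 in Ly6Chigh cells at day 4 and 991 in Ly6Chigh cells at day 2. It was 1.36- to 1.86-fold lower in neutrophils and was not called, but with equal totals it was at least 2.94-fold lower and called. Among the 4 macrophage groups Lta4h varied by 1.37-fold with nothing added. Ltc4s in neutrophils, at 94.5 normalised counts, lay within the range of the macrophage groups.

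Promoters of 4 of these genes are shown because the genes differ in where they were high: Alox5 and Cyp4f18 in neutrophils, Lta4h within 1.88-fold in all 5 muscle groups with nothing added to the counts, and Ltc4s in Ly6Clow macrophages at day 4. The sequences are the 250 bases before the RefSeq transcript start (GRCm38.p6), in the direction of the gene. For Ltc4s the 166 bases that precede the exons annotated in GENCODE are given. Capitals mark matches on either strand to GAGGAA, the core letters bound by the myeloid factor PU.1, to TTNNGCAA, letters of the C/EBP motif, or to GGGCGG, the GC box. RefSeq promoter entries matched 6 of the 10 genes.
Alox5, minus strand, chr6:116461179-116461428: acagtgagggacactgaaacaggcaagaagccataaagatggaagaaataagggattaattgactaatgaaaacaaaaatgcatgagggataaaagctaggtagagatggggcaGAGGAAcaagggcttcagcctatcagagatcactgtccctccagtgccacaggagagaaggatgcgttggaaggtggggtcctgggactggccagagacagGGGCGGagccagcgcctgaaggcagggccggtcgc
Cyp4f18, minus strand, chr8:72009627-72009876: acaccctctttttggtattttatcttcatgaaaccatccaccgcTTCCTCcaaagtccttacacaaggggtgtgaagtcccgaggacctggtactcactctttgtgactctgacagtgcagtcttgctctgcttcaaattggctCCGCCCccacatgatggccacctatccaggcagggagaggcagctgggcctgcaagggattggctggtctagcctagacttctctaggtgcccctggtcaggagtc
Lta4h, plus strand, chr10:93453146-93453395: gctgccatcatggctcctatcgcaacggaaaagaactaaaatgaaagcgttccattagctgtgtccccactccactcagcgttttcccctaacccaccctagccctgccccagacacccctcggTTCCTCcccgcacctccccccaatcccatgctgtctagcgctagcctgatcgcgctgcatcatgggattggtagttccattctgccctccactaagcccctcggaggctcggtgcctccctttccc
Ltc4s, minus strand, chr11:50238617-50238782: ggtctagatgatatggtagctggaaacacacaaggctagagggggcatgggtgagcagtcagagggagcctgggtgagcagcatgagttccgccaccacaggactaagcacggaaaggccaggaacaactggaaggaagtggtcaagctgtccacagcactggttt

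GAGGAA began 136 bases before the start in Alox5, and its reverse complement TTCCTC began 206 bases before the start in Cyp4f18 and 126 bases before it in Lta4h. GGGCGG lay 35 bases before the start in Alox5, and CCGCCC lay 106 bases before it in Cyp4f18. TTNNGCAA was in none of the 4 windows, and the Ltc4s window held none of the 3 motifs. Of 32851 RefSeq promoters, 23.3% held GAGGAA, 32.7% GGGCGG and 9.56% TTNNGCAA on either strand, with no overlap among the matches shown. The matches are letters in a window and are not evidence of binding.

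Within the macrophages, Ltc4s was the 1 member called between Ly6Clow and Ly6Chigh cells, and it was called at both days. It had 155 normalised counts in Ly6Clow cells at day 4, 67.6 in Ly6Clow cells at day 2, 57.3 in Ly6Chigh cells at day 4 and 9.92 in Ly6Chigh cells at day 2. The Ly6Clow group was higher by 3.90-fold at day 2 and by 2.46-fold at day 4, and day 4 was higher than day 2 by 3.38-fold in Ly6Chigh and by 2.13-fold in Ly6Clow cells. Ly6Clow cells at day 4 were 8.30-fold higher than Ly6Chigh cells at day 2, or 15.7-fold with nothing added to the counts. With 50 in place of 10 added, 4 of these 5 calls were lost, and the fifth, Ly6Clow at day 4 against Ly6Chigh at day 2, stayed. Ly6Chigh cells at day 4 and Ly6Clow cells at day 2 were close to each other.

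Ltc4s lies at chr11:50236461-50238616 (mm10), on the minus strand. Of its 1014 exon bases 268 overlap the antisense gene Gm26542, so without strand the 2 cannot be told apart there. Gm26542 had log2 levels of 5.48 in Ly6Clow cells at day 4, 3.95 in Ly6Clow cells at day 2, 3.76 in Ly6Chigh cells at day 4 and 1.29 in Ly6Chigh cells at day 2, the same order as Ltc4s. Mast cells and eosinophils are known for Ltc4s. Their markers Ms4a2 and Epx were at 0 in all 5 muscle groups, and Fcer1a, Prg3 and Il5ra were at log2 levels of 0.00 to 0.72. Prg2, Cpa3, Cma1, Mcpt4 and Tpsb2 were at 0.08 to 2.93. The rest, Ccr3, Siglec5, Kit and Hdc, were highest in neutrophils, at 5.75, 12.42, 6.05 and 16.52. The 6 eosinophil markers summed to 5524 normalised counts in neutrophils, 54.5 in Ly6Clow cells at day 4, 32.0 in Ly6Clow cells at day 2, 45.9 in Ly6Chigh cells at day 4 and 16.2 in Ly6Chigh cells at day 2. Among them Ccr3 was at log2 levels of 4.55, 3.80, 3.59 and 2.61 in the 4 macrophage groups in that order, which is the order of Ltc4s. Siglec5, another of the 6, made up most of the neutrophil sum, at a log2 level of 12.42. It was at 4.86, 3.64, 4.91 and 3.17 in the 4 macrophage groups in the same order. The 8 mast cell markers summed to 93996 in neutrophils, 77.9 in Ly6Clow cells at day 4, 101 in Ly6Clow cells at day 2, 351 in Ly6Chigh cells at day 4 and 389 in Ly6Chigh cells at day 2, with Kit at a log2 level of 5.84 in Ly6Chigh cells at day 4. Hdc alone made up most of this sum in all 5 groups. Its log2 level was 16.52 in neutrophils and 5.65, 6.45, 8.09 and 8.52 in the 4 macrophage groups in the same order. The part of mast cells and eosinophils in the Ltc4s levels was not tested.

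Lta4h varied less than Ltc4s over the groups, and so the proportion of the fork enzymes differed widely. Per kb of merged exons, the ratio of Lta4h to Ltc4s was 0.928 in neutrophils, 0.878 in Ly6Clow cells at day 4, 2.30 in Ly6Clow cells at day 2, 2.10 in Ly6Chigh cells at day 4 and 16.6 in Ly6Chigh cells at day 2. It was 7.30 to 12.2 in the BMDM libraries. Per kb, Ly6Chigh cells at day 2 and BMDM thus held several times more Lta4h than Ltc4s, while Ly6Clow cells at day 4 and neutrophils lay just under 1. The ratio depends on the merged lengths, 6102 bases for Lta4h and 1014 for Ltc4s, of which 268 overlap Gm26542. Merged exons pool all annotated transcripts of a gene, and which were expressed is unknown. Not divided by length, Lta4h exceeded Ltc4s, at 821 against 155 normalised counts in Ly6Clow cells at day 4. In neutrophils it was 528 against 94.5. These are transcript ratios in 1 column each, and for the muscle groups no error is known.

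Counted over the set, the number of the 10 genes called higher in Ly6Clow than in Ly6Chigh cells was 1 at day 2, of 5 that reached 50 normalised counts, beside 5.89% of 11273 genes. At day 4 it was 1 of 6, beside 2.98% of 11764 genes, the gene being Ltc4s at both days. None (0) was called lower at either day, beside 5.46% of all genes at day 2 and 4.22% at day 4. Day 4 against day 2 gave 3 of 6 called higher in Ly6Chigh cells, beside 9.66% of 11617 genes, and 2 of 6 in Ly6Clow cells, beside 8.08% of 11559 genes. For Ly6Clow at day 4 against Ly6Chigh at day 2 it was 2 of 6, beside 12.6% of 11627 genes. None (0) was called lower between days, beside 3.74% of all genes in Ly6Chigh cells, 3.24% in Ly6Clow cells and 6.66% in the comparison across subset and day. These comparisons share groups.

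**Figure D3:**
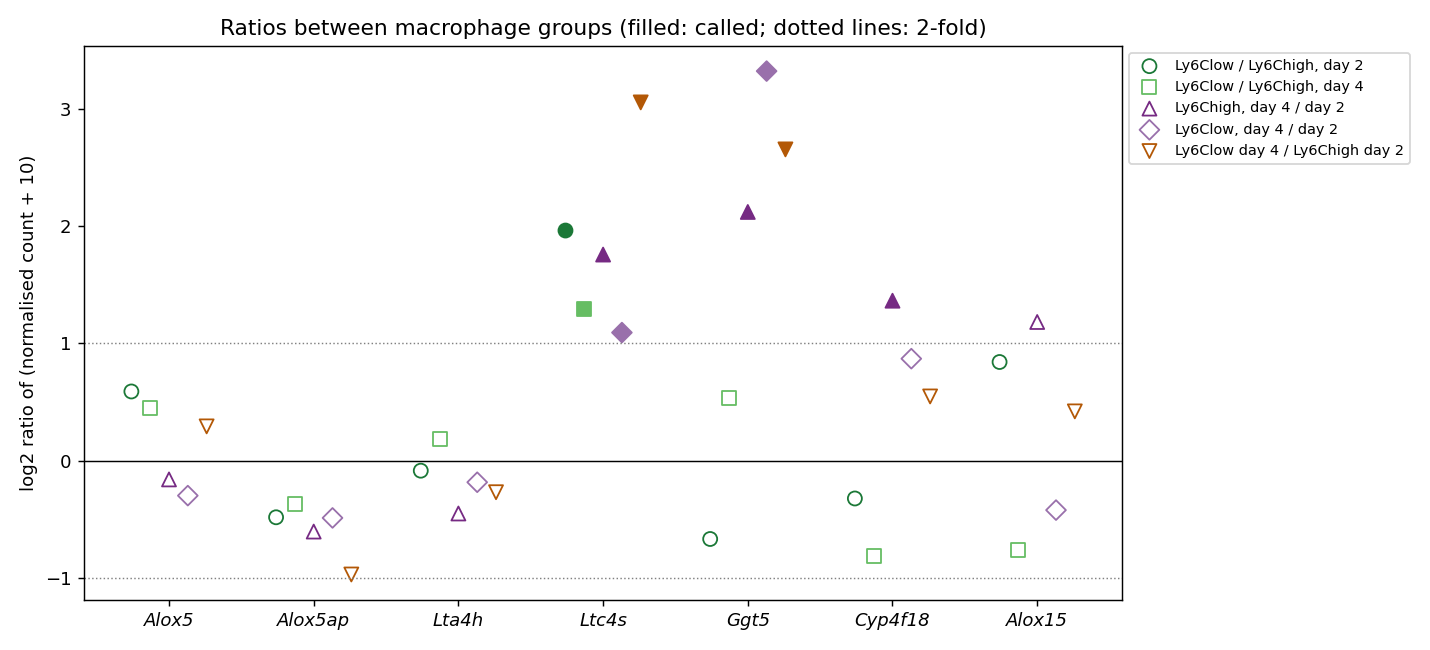
Log2 ratios of normalised counts, with 10 added, for 7 genes in 5 comparisons between macrophage groups, with the group named first on top of the ratio. Filled symbols were called, and the dotted lines mark 2-fold. Ltc4s is filled in all 5 comparisons, Ggt5 in the 3 that set day 4 over day 2, and Cyp4f18 in Ly6Chigh cells alone.

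Between days, Ggt5 was called higher at day 4 in both subsets. It was 9.99-fold higher at day 4 than at day 2 in Ly6Clow cells and 4.35-fold higher in Ly6Chigh cells. At day 2 it was under 50 normalised counts in both subsets. Fibroblast markers were also higher at day 4: the 7 summed to 1708 normalised counts at day 4 and 79.7 at day 2 in Ly6Clow cells, and to 23710 at day 4 and 244 at day 2 in Ly6Chigh cells. At day 4, 4 of the 7 reached 50 normalised counts in Ly6Clow cells and 7 of 7 in Ly6Chigh cells, against 0 and 3 at day 2. The 7 skeletal muscle markers summed to 1138 at day 4 and 306 at day 2 in Ly6Clow cells, and to 675 at day 4 and 251 at day 2 in Ly6Chigh cells. The part of fibroblasts and muscle cells in the Ggt5 levels was not tested.

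Cyp4f18 was 2.57-fold higher at day 4 than at day 2 in Ly6Chigh cells and was called. In Ly6Clow cells the ratio was 1.83-fold and not called, and the difference between the subsets could not be tested. Dendritic cell markers (8 genes) summed to 2029 normalised counts at day 4 and 174 at day 2 in Ly6Chigh cells, and to 151 at day 4 and 43.8 at day 2 in Ly6Clow cells. T and NK cell markers (9 genes) summed to 1740 at day 4 and 62.2 at day 2 in Ly6Chigh cells, and to 1260 at day 4 and 32.9 at day 2 in Ly6Clow cells. In Ly6Chigh cells at day 4, 6 of the 8 and 4 of the 9 reached 50 normalised counts, against 0 of each at day 2. In Ly6Clow cells at day 4, 0 of the 8 and 1 of the 9 did. The 1 was Cd4, which made up most of the T and NK sum there, at a log2 level of 10.26. Cd3e, Cd3g and Cd8a were at 0 in Ly6Clow cells at day 4, and at 4.89, 5.54 and 7.60 in Ly6Chigh cells at day 4. The part of dendritic, T and NK cells in the Cyp4f18 levels was not tested.

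The remaining lipoxygenases were scarce. Alox15, the lipoxygenase of resident peritoneal macrophages and eosinophils in mice, had 6.54 normalised counts in neutrophils, 18.7 in Ly6Clow cells at day 4, 28.4 in Ly6Clow cells at day 2, 38.7 in Ly6Chigh cells at day 4 and 11.5 in Ly6Chigh cells at day 2. It was under 50 in all 5 groups and could not be called. The ratio of Ly6Clow to Ly6Chigh cells (log2) was -0.76 at day 4 and 0.84 at day 2, so the order of the subsets was not the same on both days. With a limit of 20 in place of 50 normalised counts, Alox15 was called higher in Ly6Chigh cells at day 4 than at day 2, at 2.27-fold.

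Alox12, the platelet enzyme, had 10.5 normalised counts in neutrophils and at most 1.61 in the macrophage groups. The 9 platelet and megakaryocyte markers summed to 232 normalised counts in neutrophils and 886 to 12132 in the macrophage groups, where Pf4 made up most of the sum. Of the 9, Gp1ba, Itga2b, Gp1bb and Gp5 were at log2 levels of 4.80, 4.29, 4.22 and 3.76 in neutrophils and at most 2.60 in the macrophage groups. Gp9 was at 1.57 in neutrophils and at most 0.43 in the macrophage groups, and Gp6 was at 0 in all 5 groups. Ppbp was at 5.09 in neutrophils, 7.94 and 8.75 in Ly6Clow and Ly6Chigh cells at day 2, and 4.28 and 3.92 at day 4. Treml1 was at 0.95 in neutrophils and 0.00 to 3.03 in the macrophage groups. The part of platelets in the Alox12 levels was not tested. Ephx2, soluble epoxide hydrolase, had 1.21 in neutrophils and at most 4.39 in the macrophage groups. Among 4 further lipoxygenase genes none (0) reached 50 normalised counts, and Alox12b and Alox12e were listed at 0 in every column of both tables.

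The genes nearest in pattern to each member were sought by Pearson correlation over the 5 muscle groups among 10083 genes, as a description. This covered 6 of the 10 members: Alox12, Alox15 and Ephx2 were under 50 normalised counts in all 5 groups, and Lta4h spanned less than 1 on the log2 scale. Nearest to Alox5 were Trpv2, Gm10179 and Frrs1 (r at least 0.999), and nearest to Alox5ap were Gm7665, S100a11 and Dynll1. Cdo1, Tbc1d4 and Hexdc were nearest to Ltc4s (r 0.994 to 0.998). Ggt5 was followed most closely by Gm9752, Rnf166 and Il15 (r 0.997 to 0.998), and Ggt1 by Gucy2g, Spatc1 and Cdc27. Nearest to Cyp4f18 were Crispld2, Fam101b and its overlapping neighbour Zfp961. With 5 points, and 1 of them often far from the rest, many genes reach such values.

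Around the members, the path was followed through lists of suppliers, relatives, breakdown enzymes and receptors. Of 8 genes that supply arachidonic acid, assist 5-lipoxygenase, set peroxide tone or export leukotrienes, all 8 reached the limit. In neutrophils 1 was called higher and 1 lower: Mapkapk2, a kinase that phosphorylates 5-lipoxygenase, was at least 5.29-fold higher, and Dicer1, whose product binds 5-lipoxygenase, at least 3.30-fold lower. Over all genes 22.7% were called higher and 18.8% lower, and with 8 genes, counts of 1 cannot be told apart from those shares. For a median over genes, the log2 ratio to the nearest macrophage group was taken where all 4 groups went the same way. Otherwise the median of the 4 ratios was taken. On this measure the median of the list was 0.20, against -0.0028 over all genes. Pla2g4a, cytosolic phospholipase A2, had 433 normalised counts in neutrophils, 270 in Ly6Clow cells at day 4, 331 in Ly6Clow cells at day 2, 355 in Ly6Chigh cells at day 4 and 420 in Ly6Chigh cells at day 2. It was called in none of the muscle comparisons. Abcc1, which exports leukotriene C4, was 2.66-fold lower at day 4 than at day 2 in Ly6Chigh cells and was the 1 call of this list among the macrophage comparisons.

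Among 4 glutathione-using relatives of Ltc4s, Mgst1 and Mgst3 also favoured Ly6Clow over Ly6Chigh cells. Mgst1 was 2.07-fold higher at day 2 and 2.47-fold at day 4, and Mgst3 2.94-fold at day 2 and 2.18-fold at day 4. These were the 2 of the 4 that reached the limit, beside 5.89% of all genes called higher at day 2 and 2.98% at day 4, with list medians of 1.30 at day 2 and 1.21 at day 4, against -0.0023 and 0.0094 over all genes. In neutrophils Mgst3 was at least 4.40-fold lower and Ptges, the inducible prostaglandin E synthase, at least 3.38-fold higher. Dpep2, a dipeptidase that converts leukotriene D4 to E4, had 275 normalised counts in neutrophils and 1423 to 1823 in the macrophage groups. It was called lower in neutrophils, so Ggt1 and Ggt5 were higher there while the enzyme of the next step was lower.

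Of 12 further genes for leukotriene B4 and epoxide breakdown, 5 reached the limit at day 4, and 2 were called higher in Ly6Clow than in Ly6Chigh cells, beside 2.98% of all genes: Ephx1, microsomal epoxide hydrolase, at 4.33-fold, and Ptgr1, which reduces leukotriene B4 metabolites and prostaglandins, at 2.11-fold. The median of the 5 was 0.63, against 0.0094 over all genes. At day 2, 4 reached the limit. None (0) was called higher, beside 5.89% of all genes, and none (0) lower, beside 5.46%, with a median of 0.12 against -0.0023. Ephx1 had 699 normalised counts in Ly6Clow cells at day 4, 45.8 in Ly6Clow cells at day 2, 154 in Ly6Chigh cells at day 4 and 11.7 in Ly6Chigh cells at day 2. Hpgd, which oxidises prostaglandins and other hydroxy fatty acids, had 937, 53.0, 604 and 68.9 in the same order. At day 4, Ephx1 was 12.7-fold higher in Ly6Clow and 7.53-fold in Ly6Chigh cells than at day 2, and Hpgd 15.0-fold and 7.78-fold. Cyp4f13, a relative of Cyp4f18, was 2.08-fold higher at day 4 than at day 2 in Ly6Chigh cells. Ephx1 and Hpgd were scarce in neutrophils, with 8.76 for Ephx1 and 4.38 for Hpgd. Cyp4f16, another relative, was at least 5.43-fold lower in neutrophils.

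Receptors of these lipids were lower in Ly6Clow than in Ly6Chigh cells wherever they were called between the subsets. Of 9 receptor genes measured, 4 reached the limit at day 2, and 3 of them were called lower in Ly6Clow cells, beside 5.46% of all genes, with a median of -1.84 against -0.0023 over all genes. At day 4 it was 3 of 5, beside 4.22% of all genes, with a median of -1.18 against 0.0094. Ltb4r1, the high-affinity leukotriene B4 receptor, had 1432 normalised counts in neutrophils, 22.0 in Ly6Clow cells at day 4, 93.7 in Ly6Clow cells at day 2, 171 in Ly6Chigh cells at day 4 and 828 in Ly6Chigh cells at day 2. Over the 4 macrophage groups its order was the reverse of that of Ltc4s, with a 26.2-fold gap between Ly6Clow cells at day 4 and Ly6Chigh cells at day 2. Cysltr1, a receptor of cysteinyl leukotrienes, had 307 in neutrophils and 231 to 700 in the macrophage groups and was called lower in Ly6Clow cells at day 2. Gpr18, reported to bind RvD2, was 3.65-fold lower in Ly6Clow than in Ly6Chigh cells at day 4, with 30.8 and 139 normalised counts. In Ly6Chigh cells it was 6.73-fold higher at day 4 than at day 2, where it had 12.1. Dendritic cell markers summed to 2029 in Ly6Chigh and 151 in Ly6Clow cells at day 4, and T and NK cell markers to 1740 and 1260. The part of these cells in the Gpr18 levels was not tested. Fpr2, a receptor of formyl peptides and lipoxin A4, had 5154 normalised counts in neutrophils, 61.0 in Ly6Clow cells at day 4, 25.5 in Ly6Clow cells at day 2, 151 in Ly6Chigh cells at day 4 and 206 in Ly6Chigh cells at day 2. It was at least 23.9-fold higher in neutrophils, and Cmklr1, a resolvin E1 receptor, at least 12.5-fold lower.

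RvD2 was given to BMDM for 4 h, and no member passed the test against the spread between libraries. Of the 10 genes, 6 had a mean of at least 10 normalised counts and were tested with limma across all 15239 such genes. None (0) passed at a Benjamini-Hochberg adjusted p of 0.05, and none (0) had an unadjusted p under that value. Over all genes 0.794% were called higher and 1.06% lower with RvD2, 283 genes in all, or 1066 with the replicate number as a block. In that blocked fit 0 members passed as well. Nothing in the labels says that the 3 libraries of a group came from separate cultures or animals, so p-values measure only the spread between these samples.

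Alox5 had 16.3, 8.99 and 29.8 normalised counts in the 3 RvD2 libraries, against 15.8, 18.6 and 46.4 in the 3 untreated libraries. The groups overlapped, and the third library of each was the highest. The difference was -0.55 ± 0.51 (log2, SE, n = 3 each), with a 95% interval of -1.72 to 0.62 and a limma adjusted p of 0.685. With the replicate number as a block it was -0.55 ± 0.27 (log2, SE), with an unadjusted limma p of 0.0737 and an adjusted p of 0.285. Without the block, leaving out 1 library at a time moved the difference between -0.98, without the third RvD2 library, and -0.07, without the third untreated library. Summed neutrophil markers were 5013, 6444 and 9890 in the RvD2 libraries and 4887, 7565 and 15800 in the untreated libraries, so the third library of each group was highest there too. Ly6g was at log2 levels of 1.20 to 1.58 with RvD2 and 0.10 to 3.39 untreated. Their part in the Alox5 levels was not tested. The interval includes a 2-fold lower level.

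Alox5ap had 1885, 2359 and 2224 normalised counts in the RvD2 libraries and 1766, 2152 and 2231 in the untreated libraries. The groups overlapped, and the difference was 0.07 ± 0.11 (log2, SE) with an interval of -0.17 to 0.32 (limma adjusted p = 0.814). With the replicate number as a block it was 0.07 ± 0.05 (log2, SE; limma adjusted p = 0.398). Lta4h averaged 956 ± 42.9 in RvD2 cells and 947 ± 135 in untreated cells (SD, n = 3 each), with an interval of the log2 difference of -0.21 to 0.25. Ltc4s averaged 17.4 ± 0.58 with RvD2 and 17.5 ± 6.73 untreated, and its interval, -0.63 to 0.77, is wider. In the blocked fit the log2 differences were 0.02 ± 0.06 for Lta4h and 0.07 ± 0.29 for Ltc4s (SE; limma adjusted p = 0.892 and 0.931).

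Ggt5 had 37.2, 31.7 and 29.7 normalised counts in the RvD2 libraries and 37.7, 36.3 and 40.8 in the untreated libraries. The difference was -0.22 ± 0.17 (log2, SE; limma adjusted p = 0.590), and the groups overlapped by 1 library. It was lower with RvD2 in 3 of 3 same-numbered pairs, and with the replicate number as a block the difference was -0.22 ± 0.18 (log2, SE; limma adjusted p = 0.540). Cyp4f18 averaged 28.2 ± 4.20 with RvD2 and 35.3 ± 9.10 untreated, a difference of -0.30 ± 0.23 (log2, SE; limma adjusted p = 0.612). Its blocked difference was -0.30 ± 0.21 (log2, SE; limma adjusted p = 0.472). Without the block and without the first untreated library, its unadjusted p was 0.0456 in limma, with an adjusted p of 0.360. The other 4 members were below the limit and not tested with it. Ggt1 was listed at 0 in the 3 untreated libraries and had 1.36, 1.29 and 2.13 normalised counts in the RvD2 libraries, near what 1 or 2 reads are worth. In limma without the limit its difference was 0.63 ± 0.23 (log2, SE), with an unadjusted p of 0.0318 and an adjusted p of 0.339. Alox15 was above 0 in 1 of the 6 libraries.

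**Figure D4:**
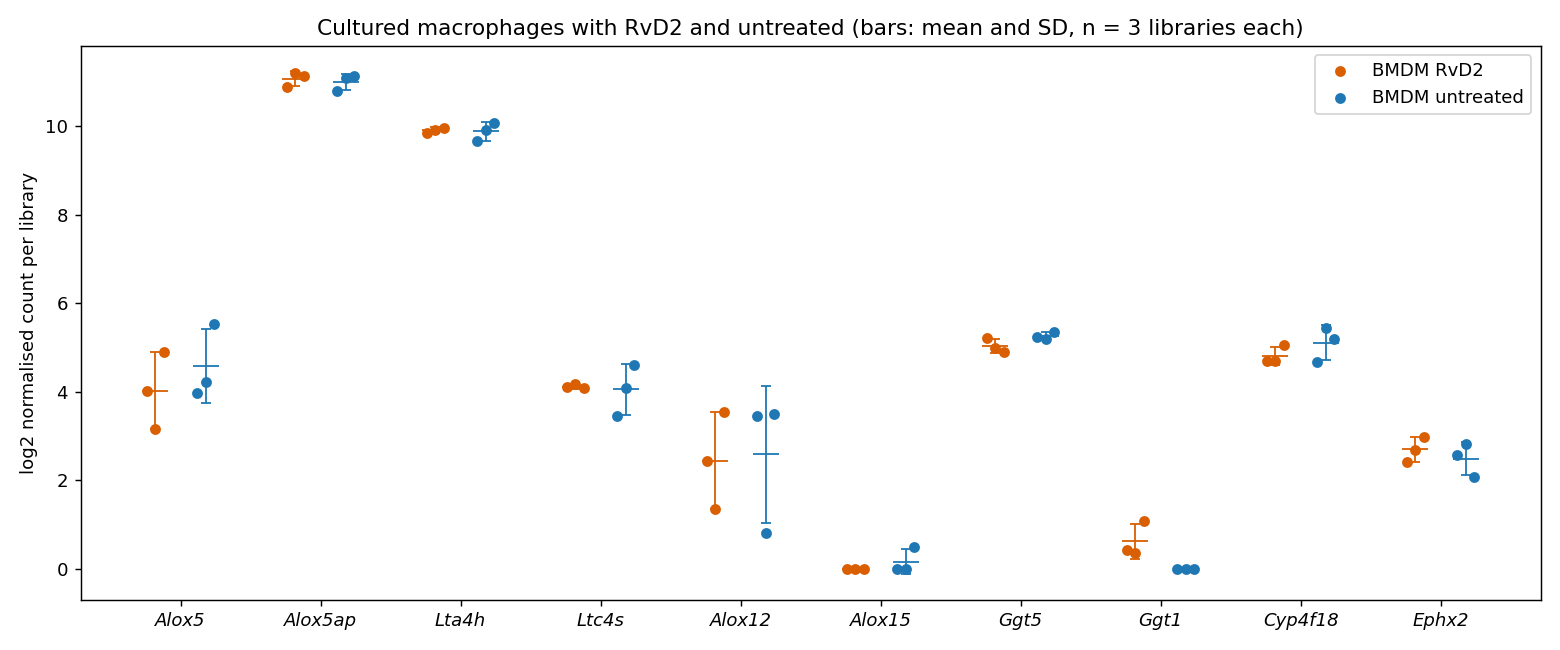
Log2 normalised counts of the 10 genes in the 3 RvD2 libraries (left of each pair) and the 3 untreated libraries (right), with the mean and SD of each group. The groups overlap in every gene but Ggt1, which is at 0 in the untreated libraries, and no difference among the 6 genes tested passed the threshold.

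As in muscle, BMDM held more FLAP than 5-lipoxygenase transcript per kb. The tables were normalised separately, so levels are given side by side without a test. Cyp4f18 had 25.7 to 33.0 normalised counts with RvD2 and 25.6 to 43.7 untreated, while muscle macrophages had 1221 to 3948. Ggt5 had 29.7 to 37.2 with RvD2 and 36.3 to 40.8 untreated, within the 14.5 to 235 of the muscle macrophages. The 7 fibroblast markers summed to 34948 to 55006 with RvD2 and 39299 to 45865 untreated, against 79.7 to 23710 in the muscle macrophage groups, and their part in the BMDM levels was not tested. Of the listed path genes that are no members, 25 were tested in BMDM with limma without the replicate block, and none (0) passed. Their results in the blocked fit are not given here. The 7 at an unadjusted limma p under 0.05 were Mgst2 (-0.80 on the log2 scale, adjusted p = 0.201), Cyp4f13 (0.29, adjusted p = 0.160), Abcc4 (-0.33, adjusted p = 0.217), Ptgr1 (-0.24, adjusted p = 0.246), Fpr2 (-1.15, adjusted p = 0.306), Ptges (-0.31, adjusted p = 0.317) and Abcc1 (-0.13, adjusted p = 0.317). How many of all genes lay under that unadjusted p was not counted, so nothing is read from the number 7.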

How the data were processed

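Poly-A RNA from sorted muscle leukocytes and BMDM was sequenced after TruSeq preparation, per the labels' protocols. TopHat2 2.0.7, DESeq and the build mm10 were used, per the submitters' processing notes, and an annotation and a counting tool are not given in the sources used here. Per gene, the authors deposited log2 values of normalised read counts. The muscle table holds the authors' mean log2 value per group, and the BMDM file has a column for each library. Recovered muscle counts are thus geometric means, and a log2 value of 0 was taken as 0 counts. Identifiers were matched to GENCODE M21 (95.3% found). In 2 muscle cells, of no member, the file holds text in place of a number, and these 2 genes were left out of the muscle comparisons. No column (0) belonged to another series. Of the 9 labelled groups, 2, with 6 of the 25 samples, were not analysed here.

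BMDM were compared on the log2 values as deposited with limma 3.58.1 in R 4.3.3 (mean-variance trend, mean normalised count of at least 10, two-sided, Benjamini-Hochberg), a script tested on simulated data. Same-numbered RvD2 and untreated libraries deviated together (r 0.446, 0.193 and 0.322 over 11864 genes, each pair above 0.1), against -0.361 to 0.061 for other pairs. Deviations were taken from each group's own mean, so these values are not independent. The labels do not say whether the libraries are paired, and the replicate number served as a block in an alternative fit. BMDM depth was estimated from the most common low values, of which 45.7 to 60.6% lie within 0.02 of a whole multiple of the step taken as 1 read. It covers counting error only. The depth of the muscle groups is unknown. Lengths are merged GENCODE exons. Python 3.11.15, numpy 2.4.6, pandas 2.3.3 and matplotlib 3.10.9 were used.

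The members, path lists and marker lists were chosen with earlier results of these data known. Members were always named, path genes where called in a muscle comparison or past the BMDM test, and like genes as the 3 of highest Pearson r per member among genes at 50 or more in some group with a log2 range of at least 1. Pla2g4a and the BMDM path genes under an unadjusted p of 0.05 fall outside that rule and were chosen after their values were seen. Promoters are from RefSeq (GRCm38.p6). Alternatives were other offsets, level limits, filters, scalings, the replicate block and leaving out each library. The equal-totals scaling was added after seeing the data.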

Additional observations from a re-analysis of the deposited data

How the results depend on the processing

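In muscle, adding 50 in place of 10 normalised counts gave 829 called genes, against 1280, between the subsets at day 2, 552, against 848, at day 4 and 1032, against 1557, between days in Ly6Chigh cells. Members called were then 0, against 1, between the subsets at either day, and 1, against 2, between days in Ly6Clow cells. Ltc4s then lost 4 calls, with log2 ratios of 0.97 between the subsets at day 2, 0.94 between them at day 4, 0.84 between days in Ly6Chigh cells and 0.80 between days in Ly6Clow cells. An added count of this size shrinks ratios of low genes by construction. Equal totals put Lta4h at -1.55 in neutrophils against the nearest macrophage group, a call it did not have before. Of 180 recomputed muscle ratios of members, the other 175 stayed on their side of the limits, and 0 called ratios changed sign. In BMDM the genes called were 137 without a filter, 49 without a mean-variance trend, 1066 with the replicate block, 290 without the first RvD2 library and 79 to 140 without any other single library, against 283. No member passed (0) under any of these alternatives, and the block changed no member's call. The cause of these BMDM changes was not tested. Alox5, Ltc4s, Ggt5 and Cyp4f18 in BMDM rest on fewer than 50 normalised counts per library, which limits what can be told apart. No paired analysis was possible for muscle because each group has 1 deposited column.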

Other observations

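Among the markers of other leukocytes, Hdc, which makes histamine, was at a log2 level of 16.52 in neutrophils and 5.65 to 8.52 in the macrophage groups. Siglec5, as the table names the gene that GENCODE calls Siglecf, was at 12.42 in neutrophils and 3.17 to 4.91 in the macrophage groups. Kit was at 6.05 in neutrophils and 1.92 to 5.84 in the macrophage groups, and Ccr3 at 5.75 in neutrophils and 2.61 to 4.55 in the macrophage groups. All 4 are listed as mast cell or eosinophil genes, while Ms4a2, Epx and Prg3 were at 0 in neutrophils. In BMDM, Ltb4r1 had 16.3, 23.2 and 28.7 normalised counts with RvD2 and 6.10, 23.9 and 46.6 untreated, which overlap (limma adjusted p = 0.918).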
